A study of Sus scrofa with 15 samples.

Results

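Aquaporins were examined in Longissimus muscle of 15 pigs weighing 20 kg. They were chosen as the probes whose array gene name begins with AQP and a digit and whose signal was flagged as well above background on 7 or more of the 15 arrays. Of 12 probes with such a name, 9 probes of 8 genes met this rule: AQP1, AQP2, AQP3 (2 probes), AQP4, AQP5, AQP6, AQP7 and AQP10. The array lists AQP8 and AQP11 under locus names. They were found through their transcript accessions and passed the same detection level, which makes 10 genes with 11 probes out of 43603 non-control probes, 31984 of which were tested. Detection on the arrays chose the probes, and the line differences of AQP4, AQP7 and AQP11 were already known when the family was picked out. Their p-values are therefore descriptions and no independent support.

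The pigs came from lines selected on residual feed intake (RFI), the feed eaten beyond what maintenance and growth are predicted to need. The low_RFI line (strain RFIneg, n = 7) is the more efficient and the high_RFI line (RFIpl, n = 8) the less efficient. All pigs were fed ad libitum and each had its own 1-colour array. Sex, litter and age are not given in the labels used here, and p-values measure the spread between these pigs.

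Aquaporins are membrane channels built of tetramers in which each subunit forms its own pore. Orthodox members pass water, aquaglyceroporins (AQP3, AQP7, AQP9 and AQP10) also pass glycerol, and AQP11 belongs to a divergent group found inside cells. In skeletal muscle AQP4 is the water channel of the fibre membrane, best known from fast fibres, where the dystrophin complex anchors it. AQP1 is known from capillary endothelium and red cells, and AQP7 from the glycerol release of fat cells.

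Each aquaporin was read by a probe of 60 bases, so a value belongs to that stretch of its transcript. The probes of AQP4, AQP7 and AQP11 are shown because the differences between lines rest on 1 probe each, and those of AQP3 and AQP2 because 2 probes of the same transcript can be compared.
AQP4: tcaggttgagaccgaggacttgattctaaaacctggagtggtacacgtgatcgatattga
AQP7: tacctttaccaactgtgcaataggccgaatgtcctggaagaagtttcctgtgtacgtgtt
AQP11: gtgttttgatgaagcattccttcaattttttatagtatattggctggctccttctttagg
AQP3 probe 1: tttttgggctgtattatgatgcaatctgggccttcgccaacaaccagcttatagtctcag
AQP3 probe 2: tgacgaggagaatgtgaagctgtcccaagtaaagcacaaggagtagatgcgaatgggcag
AQP2 probe 1: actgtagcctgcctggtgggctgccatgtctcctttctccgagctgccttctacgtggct
AQP2 probe 2: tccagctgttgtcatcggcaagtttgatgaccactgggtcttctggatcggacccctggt
The AQP4 and AQP7 probes hold 45.0% G and C, and the AQP11 probe 35.0%, near the bottom of the array (0.284% of array probes were lower). The bright AQP2 probe holds 60% G and C, above 98.8% of array probes. None of the aquaporin probes shared a run longer than 15 bases with another array probe, where 15 bases was the shortest run searched. In the RefSeq gene table of the pig, AQP3 and AQP7 are neighbours with 0 protein-coding genes between them, and so are AQP2 and AQP5, and AQP5 and AQP6.

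An array had 26908 to 34644 probes above background by the scanner's flag, and saturation was not flagged. Both lines were present on each of the 4 slides. Array names carry numbers in 2 runs, 1 to 8 (4 low_RFI and 4 high_RFI pigs) and 55 to 62 (3 and 4). A level is the log2 processed signal with the 75th percentile of its array subtracted, so that 0 is that percentile. Muscle markers were bright: for CKM, the muscle creatine kinase, low_RFI pigs had a level of 10.02 ± 0.095 (SD, n = 7) and high_RFI pigs one of 10.05 ± 0.11 (SD, n = 8). Levels of different probes are not set against each other, since probes differ in brightness. In whole muscle, fewer cells of a type and less RNA per cell cannot be told apart.

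AQP4, the water channel of the fibre membrane, had the largest difference between lines among the aquaporins over all 15 pigs, with AQP7 close to it. Without low_RFI replicate 1 AQP4 differed by -1.22 and AQP7 by -1.23, and without low_RFI replicate 7 both differed by -1.28. In low_RFI its level had a lowest value of -1.43, a median of -0.25 and a highest value of 1.39, and in high_RFI these were 0.27, 1.19 and 2.27. The lines overlapped: 3 low_RFI pigs (levels 1.39, 0.99 and 0.065) had levels above 0, 2 of them within the high_RFI range, and 5 of the 7 lay below every high_RFI pig. Low_RFI pigs averaged -0.064 ± 0.99 (SD, n = 7) and high_RFI pigs 1.19 ± 0.57 (SD, n = 8). The log2 difference, low_RFI minus high_RFI, was -1.26 (SE 0.38, 95% interval -2.05 to -0.46), a signal 2.39-fold higher in high_RFI. A low_RFI pig was higher in 9 of 56 pairs of pigs. With limma the unadjusted p was 0.00415 and the adjusted p over all probes 0.506, so AQP4 did not pass.

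AQP7, the aquaglyceroporin of fat cells, was likewise higher in high_RFI, but its signal was dim. Its processed signal ran from 10.4 to 39.8 in low_RFI and from 26.0 to 81.5 in high_RFI, and it was well above background on 6 of 7 and 8 of 8 arrays. The level in low_RFI had a lowest value of -5.09, a median of -3.68 and a highest value of -3.25, and in high_RFI -3.75, -2.89 and -2.35. The lines overlapped, and 3 low_RFI pigs (-4.65, -4.89 and -5.09) lay well below all others. Low_RFI pigs averaged -4.07 ± 0.78 (SD, n = 7) against -2.92 ± 0.49 (SD, n = 8) for high_RFI pigs, a difference of -1.14 (SE 0.31, 95% interval -1.79 to -0.49), 2.21-fold higher in high_RFI. A low_RFI pig was higher in 5 of 56 pairs, and AQP7 did not pass limma's adjusted threshold (unadjusted p = 0.00185, adjusted p = 0.466). With normexp background correction the difference was -0.42.

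AQP11, an intracellular channel linked to the endoplasmic reticulum and to passage of hydrogen peroxide, went the other way. In low_RFI the level had a lowest value of -0.20, a median of -0.091 and a highest value of 0.12, and in high_RFI -0.61, -0.37 and -0.22. The lines did not overlap, and the low_RFI pig was higher in 56 of 56 pairs. Low_RFI pigs averaged -0.074 ± 0.11 (SD, n = 7) against -0.41 ± 0.15 (SD, n = 8) for high_RFI pigs, a difference of 0.34 (SE 0.082, 95% interval 0.17 to 0.51), 1.27-fold higher in low_RFI. Limma gave an unadjusted p of 0.000787 and an adjusted p of 0.434.

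**Figure D1:**
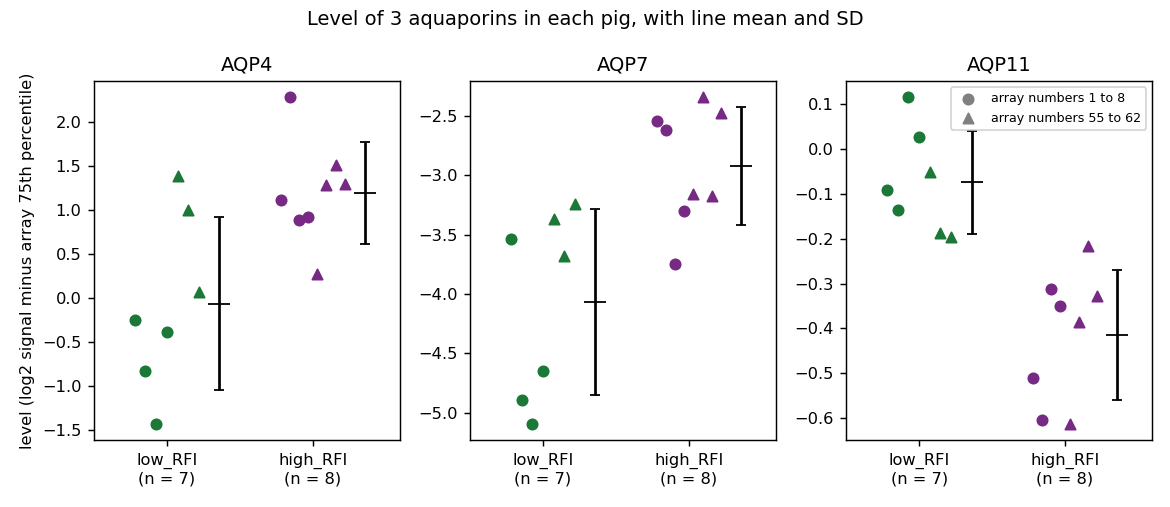
Level of AQP4, AQP7 and AQP11 in each pig (points; y axis, log2 signal minus the array's 75th percentile) by line (x axis), with circles for array numbers 1 to 8, triangles for 55 to 62, and bars for mean and SD. The lines overlap for AQP4 and AQP7 and not for AQP11, where low_RFI pigs lie between -0.20 and 0.12 and high_RFI pigs between -0.61 and -0.22.

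The other aquaporins had differences whose 95% intervals all included 0. AQP1 of capillaries and red cells averaged -2.02 ± 0.28 (SD, n = 7) in low_RFI pigs against -1.81 ± 0.45 (SD, n = 8) in high_RFI pigs, a difference of -0.21 (SE 0.19) that was -0.064 without high_RFI replicate 8. The difference was -0.15 (SE 0.27) and -0.41 (SE 0.33) for the 2 probes of AQP3, a glycerol channel best known from skin and kidney. Without high_RFI replicate 8 these were -0.028 and -0.26, without high_RFI replicate 6 -0.032 and -0.28, and without low_RFI replicate 2 -0.12 and -0.21. It was -0.023 (SE 0.12) for AQP2, the vasopressin-regulated water channel of the kidney, and -0.10 (SE 0.20) for AQP5 of secretory glands. For AQP6, a channel of intracellular vesicles in the kidney, it was -0.054 (SE 0.22), for AQP8, a water and peroxide channel best known from gut and liver, 0.026 (SE 0.11), and for AQP10, an aquaglyceroporin known from the intestine, -0.0096 (SE 0.11). The interval of AQP2 ran from -0.28 to 0.23, that of AQP8 from -0.21 to 0.26 and that of AQP10 from -0.25 to 0.23, and the other 5 were wider.

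**Figure D2:**
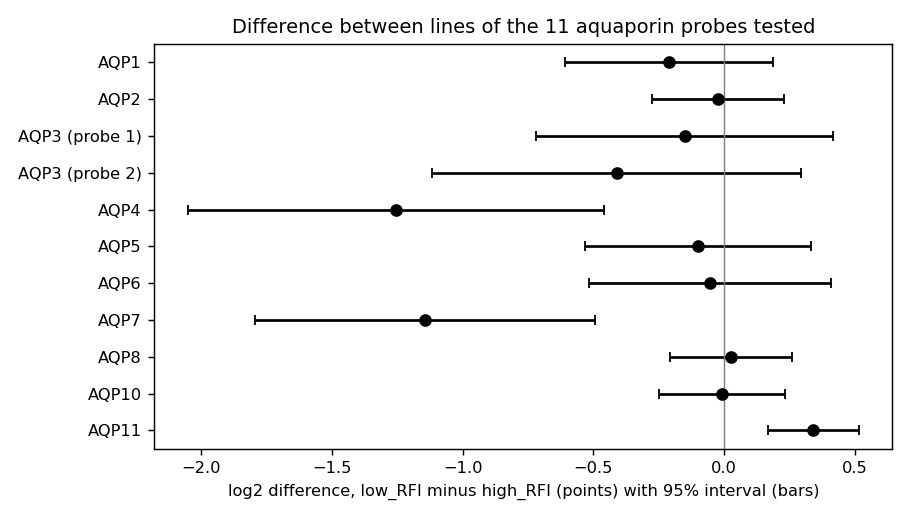
Log2 difference between lines, low_RFI minus high_RFI (points, x axis), with 95% interval (bars) for the 11 aquaporin probes (y axis). Intervals of AQP4, AQP7 and AQP11 leave out 0, AQP4 and AQP7 at -1.26 and -1.14 and AQP11 at 0.34.

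Of the 11 probes, 2 were higher in low_RFI and 9 in high_RFI. None of them passed limma's adjusted threshold of 0.05, nor did any of the 31984 probes (0% in either direction, smallest adjusted p 0.107). At an unadjusted limma p under 0.05, 1 aquaporin probe was higher in low_RFI, where 3.65% of all probes were, and 2 were higher in high_RFI, where 2.99% of all probes were. Lines that did not overlap, with low_RFI higher, were found for 0.0406% of all probes, among them AQP11, and with high_RFI higher for 0.0375%, with no aquaporin. Over the 10 genes the median difference was -0.077, against 0.012 over all tested probes, 46.6% of which were below 0. Since the family was picked out with these differences known, the counts describe it and nothing more is read from them.

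AQP6, well above background on 11 of 15 arrays, was the member closest to the detection limit, and the second AQP10 probe, on 2 of 15 arrays, was the nearest below it. AQP9, the glycerol channel of liver, and the second AQP2 probe were well above background on 1 array each, a high_RFI array in both cases, and were not tested.

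Probes of the same transcript agreed for AQP3 and not for AQP2 or AQP10. The AQP3 probes, which start at bases 356 and 828 in the files' transcript positions, correlated across the 15 pigs at r = 0.79 (rho 0.70, permutation p = 0.00063, Benjamini-Hochberg 0.00577 over 55 pairs of aquaporin probes). Without the 2 farthest pigs r was 0.731, and within array numbers 1 to 8 and 55 to 62 it was 0.415 and 0.886. The AQP2 probe at base 215 was well above background on 15 arrays and that at base 571 on 1. The AQP10 probe at base 280 was so on 15 arrays and that at base 846 on 2. Both probes of a gene share the pig's RNA and are not replicates.

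The difference of AQP4 was larger in the first run of array numbers, although the interaction did not pass. In array numbers 1 to 8 the 4 low_RFI pigs had levels of -0.25, -0.83, -1.43 and -0.38 and the 4 high_RFI pigs 1.11, 2.27, 0.88 and 0.91. Every low_RFI pig of that run lay below every high_RFI pig. In array numbers 55 to 62 the 3 low_RFI pigs had 1.39, 0.99 and 0.065 and the 4 high_RFI pigs 0.27, 1.28, 1.504 and 1.29, and the lines overlapped. The difference was -2.02 in the first run and -0.27 in the second. The line by run interaction, a test chosen after the data were seen, was -1.75 (SE 0.57) with an unadjusted limma p of 0.00858 and an adjusted p of 0.872. At an unadjusted interaction p under 0.05 stood 1795 probes (5.61%), and 0 passed limma's adjusted threshold. The runs themselves differed: with line and run both in the fit, 728 probes (2.28%) passed limma's adjusted threshold for run. The run effect of AQP4, array numbers 1 to 8 minus 55 to 62, was -0.60 (limma adjusted p = 0.370). Among the aquaporin probes the smallest adjusted p for run was 0.0616, for the second AQP3 probe at -0.93.

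AQP7 differed by -1.49 in array numbers 1 to 8 and by -0.64 in 55 to 62 (interaction -0.85, SE 0.51, limma adjusted p = 0.942). The 3 dimmest AQP7 values were low_RFI pigs of the first run, 1 of them on the array with the fewest probes above background, 26908, where AQP7 itself was not well above background. AQP11 differed by 0.42 and 0.24 in the same runs (interaction 0.18, SE 0.17). Within slides 1 to 4 AQP4 differed by -1.11, -1.53, -1.23 and -1.25, AQP7 by -1.84, -0.65, -0.99 and -0.83, and AQP11 by 0.29, 0.52, 0.31 and 0.23. AQP4 and AQP7 had the same sign in every slide and in both runs. These splits reuse the same pigs, among whom a low_RFI pig was higher in only 9 and 5 of 56 pairs. The agreement of sign is therefore no separate support. For AQP11 the lack of overlap between lines fixes the sign of any such split. Slide 2 held 1 low_RFI pig.

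**Figure D3:**
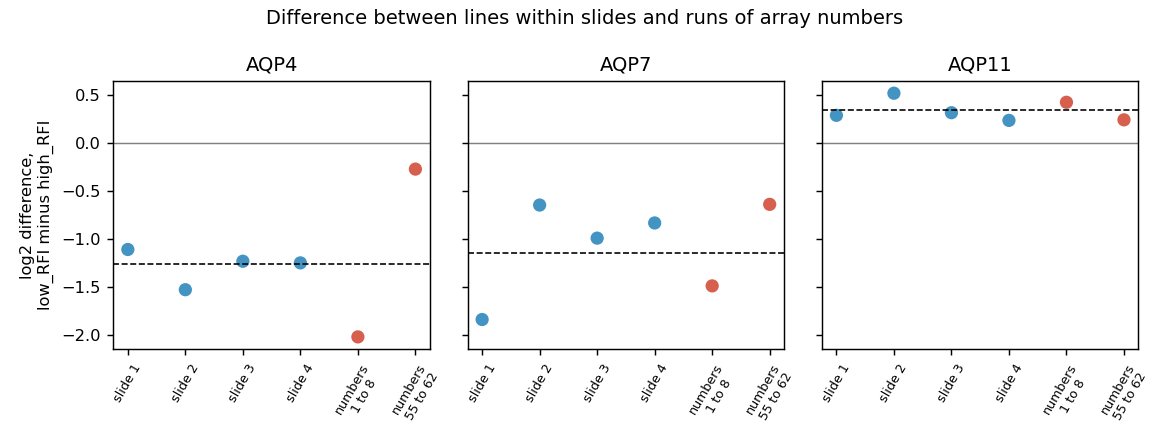
Log2 difference, low_RFI minus high_RFI (y axis), of AQP4, AQP7 and AQP11 within each slide (blue) and each run of array numbers (red), with the difference over all pigs as a dashed line. AQP4 differs by -2.02 in array numbers 1 to 8 and by -0.27 in 55 to 62, while its slide values run from -1.53 to -1.11.

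Across pigs the aquaporins covaried in groups, in correlations computed after the data were seen. AQP4 and AQP7 varied together at r = 0.825 (rho 0.714, permutation p = 8e-05, adjusted 0.0011 over 55 pairs, n = 15). Without the 2 farthest pigs r was 0.641. Within the lines it was 0.79 in low_RFI and 0.447 in high_RFI, and within array numbers 1 to 8 and 55 to 62 it was 0.901 and 0.267. AQP7 and AQP11 ran opposite ways at r = -0.749 (rho -0.789, permutation p = 0.00146, adjusted 0.0114), or -0.686 without the 2 farthest pigs, and within lines at -0.636 and -0.302, and within the same runs at -0.901 and -0.423. For AQP4 and AQP11 r was -0.635 (rho -0.521, adjusted permutation p = 0.0513), or -0.475 without the 2 farthest pigs. It was -0.511 within low_RFI and 0.0165 within high_RFI, and it turned from -0.946 in array numbers 1 to 8 to 0.386 in 55 to 62. The chosen differences between lines take part in these pooled values.

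**Figure D4:**
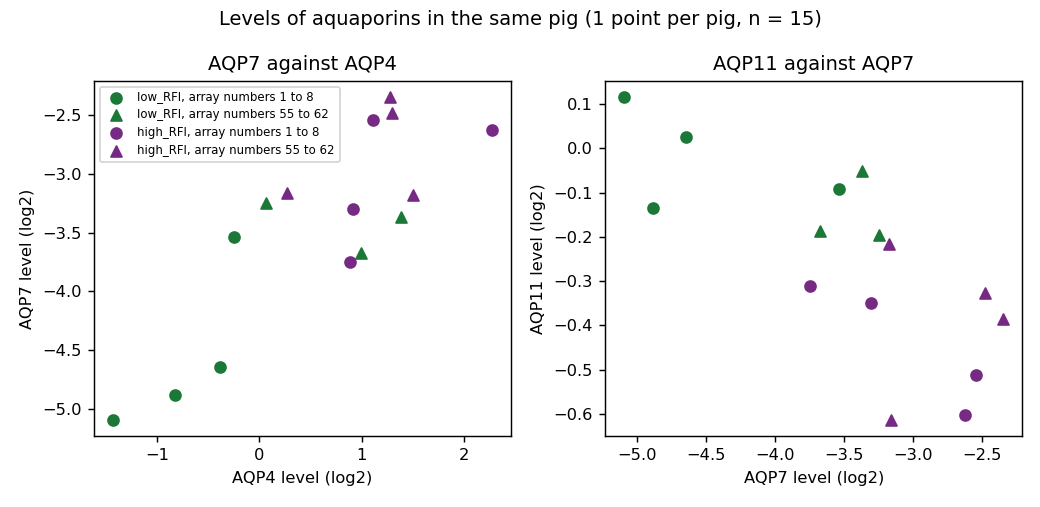
AQP7 against AQP4 (left) and AQP11 against AQP7 (right), level in log2, 1 point per pig, coloured by line and shaped by run of array numbers. Of the 4 low_RFI pigs of array numbers 1 to 8, 3 stand at the low end of both AQP4 and AQP7, and r over all 15 pigs is 0.825 on the left and -0.749 on the right.

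A separate group was formed by AQP2, AQP8 and AQP10, none of which passed the test between lines. AQP2 and AQP8 correlated at r = 0.911 (rho 0.882), AQP10 and AQP8 at 0.859 (rho 0.857) and AQP10 and AQP2 at 0.789 (rho 0.807), with adjusted permutation p of 0.0011, 0.0011 and 0.00385. Without the 2 farthest pigs these were 0.697, 0.723 and 0.518. Within array numbers 1 to 8 they were 0.954, 0.886 and 0.795, and within 55 to 62 0.571, 0.787 and 0.586. AQP2 also ran opposite to the first AQP3 probe at r = -0.753 (rho -0.668, adjusted permutation p = 0.0114; -0.73 without the 2 farthest pigs). With the second AQP3 probe r was -0.543 (rho -0.604), which did not pass (adjusted permutation p = 0.137). AQP10 ran opposite to both AQP3 probes at r = -0.666 and -0.714 (adjusted permutation p = 0.0335 and 0.0165), or -0.422 and -0.574 without the 2 farthest pigs. AQP8 did so with the first at -0.72 (adjusted permutation p = 0.0182), or -0.436 without the 2 farthest pigs. With the second it was at -0.539, which did not pass. AQP5 and AQP6, neighbours in the genome, correlated at r = 0.874 (rho 0.725, adjusted permutation p = 0.0011), or 0.661 without the 2 farthest pigs, and at 0.542 after slide means were removed. Within array numbers 1 to 8 and 55 to 62 it was 0.953 and 0.638. In all, 11 of 55 pairs passed an adjusted p of 0.05. The part of spot quality in these relations was not tested.

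**Figure D5:**
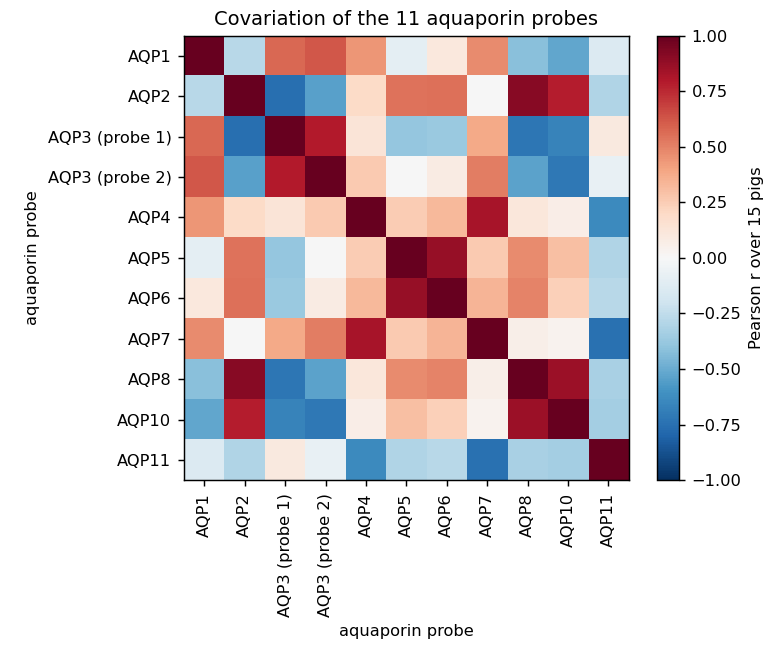
Pearson r over 15 pigs (colour, from -1 to 1) between the 11 aquaporin probes (both axes). The tested probes of AQP2, AQP8 and AQP10 form a positive block with r from 0.789 to 0.911. The second probes of AQP2 and AQP10, rarely above background, are not shown. AQP5 with AQP6 (0.874) and AQP4 with AQP7 (0.825) form pairs.

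Among 4497 other gene symbols, those whose level followed AQP4 most closely over the 15 pigs were POMC (r = 0.895), PPARGC1A (0.874), ST6GALNAC2 (0.854), GPANK1 (0.832) and FZD10 (0.826). PPARGC1A encodes PGC-1alpha, a coactivator of mitochondrial and slow fibre genes, and POMC the precursor of melanocortin peptides. After line means were removed these r were 0.824, 0.835, 0.766, 0.846 and 0.764. For AQP7 they were PROX1 (0.851), ST6GALNAC2 (0.832), NME4 (0.821), POMC (0.809) and C1H9orf16 (0.781), of which PROX1 is a transcription factor known from lymphatic vessels and slow fibres. After line means were removed r was 0.799, 0.726, 0.698, 0.668 and 0.753 in that order. The AQP11 neighbours were RPL14 (0.916), RPS3 (0.845), ZCCHC3 (0.831), PRIM2 (0.819) and PRNP (0.805), among them 2 ribosomal protein genes. Without line means these were lower, at 0.812, 0.686, 0.575, 0.512 and 0.577, so the line difference for which AQP11 was chosen is part of them. ST6GALNAC2 and POMC stood in the lists of both AQP4 and AQP7.

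Markers of the cell types that carry aquaporins were set beside the levels. Of 60 relations between 10 aquaporins and 6 marker lists, 0 passed an adjusted permutation p of 0.05 and 6 had an unadjusted p under 0.05. Over all 15 pigs the smallest permutation p was 0.0113, for the second AQP3 probe with the fast fibre markers (r = -0.631, rho -0.657, adjusted 0.437). Within array numbers 1 to 8 and 55 to 62 this r was -0.578 and -0.0575. With the endothelial markers the same probe gave r = -0.529 (permutation p = 0.0437, adjusted 0.437). The 2 highest rho were those of AQP5 and AQP6 with the red cell list, which rests on HBE1, an embryonic globin. AQP5 gave r = 0.56 (rho 0.764, adjusted permutation p = 0.437) and AQP6 r = 0.627 (rho 0.761, adjusted permutation p = 0.437), or 0.815 and 0.702 without the 2 farthest pigs. Within array numbers 1 to 8 r was 0.913 and 0.896 (both adjusted permutation p = 0.0781), and within 55 to 62 0.712 and 0.986. That last value, of AQP6, passed over the 60 relations of its run (n = 7, exact permutation, adjusted p = 0.0238). Both of its probes were dim. In that run the AQP6 signal ran from 20.1 to 24.7 in low_RFI and from 16.8 to 31.1 in high_RFI. HBE1 averaged -4.38 in low_RFI and -4.30 in high_RFI over all pigs, and the part of background in this relation was not tested. AQP7 against the fat cell markers gave little relation (r = 0.158, rho 0.118, permutation p = 0.571, adjusted 0.959), 11 of 13 of which were tested and whose mean level ran from 0.90 to 2.12 in low_RFI and from 0.63 to 1.99 in high_RFI. So did AQP4 against the fast fibre markers (r = -0.148, rho -0.121, permutation p = 0.597, adjusted 0.959). Both had their highest r with the slow fibre markers, AQP4 at 0.551 (rho 0.493, permutation p = 0.0344) and AQP7 at 0.571 (rho 0.543, permutation p = 0.0255), each adjusted to 0.437. Without the 2 farthest pigs these were 0.486 and 0.406. Within array numbers 1 to 8 they were 0.573 and 0.673, and within 55 to 62 0.305 and 0.0567.

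The slow fibre markers ran from 4.75 to 6.55 in mean level in low_RFI and from 4.83 to 6.18 in high_RFI. Of 13 tested, 12 were higher in high_RFI (median -0.24), as were 46.6% of all tested probes. None passed the test or had an unadjusted p under 0.05. Markers of 1 list share the pigs' RNA, so their directions are not separate observations. MYL6B, a slow fibre myosin light chain with the largest difference of the 13, differed by -0.98 (SE 0.48, limma adjusted p = 0.766). Of 11 fast fibre markers 10 were higher in low_RFI (median 0.053), with MYH4, a fast myosin, at 0.12 (SE 0.093). The part of fibre type in the AQP4 and AQP7 values was not tested.

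None of the genes of the pathways around these channels passed limma's adjusted threshold in any list. Of 14 tested genes of glycerol handling and fat breakdown, 5 were higher in low_RFI and 9 in high_RFI (median difference -0.072). An unadjusted limma p under 0.05 was found for 1 of the 14, higher in low_RFI, where 3.65% of all probes were. Nothing is read from that count. MGLL, the lipase that frees glycerol from monoglycerides, differed by 0.38 (SE 0.12, limma adjusted p = 0.547), and PNPLA2, which starts fat breakdown, by -0.41 (SE 0.19, limma adjusted p = 0.753). PCK1, an enzyme of glyceroneogenesis, and DGAT2, which builds triglyceride, differed by -0.24 (SE 0.19) and 0.29 (SE 0.25). Fat cell markers were split, 5 higher in low_RFI and 6 in high_RFI (median -0.013), with FASN, the fatty acid synthase, at 0.50 (SE 0.37) and CIDEA, a lipid droplet protein, at 0.17 (SE 0.20).

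The dystrophin complex that anchors AQP4 had 8 of 16 genes tested, 7 higher in low_RFI and 1 in high_RFI (median 0.069). None had an unadjusted limma p under 0.05, where 3.65% of all probes were higher in low_RFI and 2.99% in high_RFI. SGCA, a sarcoglycan of the complex, differed by -0.30 (SE 0.15). Of 10 genes of cell volume and osmolytes, 5 were higher in each line (median -0.0090). SLC12A4, a potassium chloride cotransporter, was at -0.20 (SE 0.10) and WNK1 at -0.61 (SE 0.36). Of 4 sodium pump and potassium channel genes, 3 were higher in high_RFI (median -0.18), with KCNJ2, an inward rectifier channel, at -0.28 (SE 0.17).

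Of 6 tested genes of oxidative folding in the endoplasmic reticulum, where AQP11 acts, 5 were higher in low_RFI and 1 in high_RFI (median 0.22, against 0.012 over all tested probes), and 2, both higher in low_RFI, had an unadjusted p under 0.05, where 3.65% of all probes were. PRDX4, a peroxidase that consumes hydrogen peroxide there, differed by 0.33 (SE 0.13, limma adjusted p = 0.691). HSPA5, the chaperone BiP, differed by 0.25 (SE 0.11, limma adjusted p = 0.749) and CALR, another chaperone, by 0.19 (SE 0.095). The list's other 12 genes were not tested. The list was chosen with earlier results of these data known, and its genes share the pigs' RNA. Nothing is read from its counts or its median.

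Of the remaining marker lists, endothelium had 4 of 7 genes higher in low_RFI, with CDH5 at 0.27 (SE 0.13). Fibroblasts had 3 of 6 (median -0.019), with LUM at 0.45 (SE 0.21) at an unadjusted limma p of 0.0473. An unadjusted p under 0.05 with low_RFI higher was found for 3.65% of all probes, and nothing is read from it. FBN1 and COL1A2 differed by -0.11 (SE 0.17) and -0.12 (SE 0.19). Leukocytes had 3 of 5 (median 0.37), with CD14 at -0.28 (SE 0.18). CD3D, CD3E and CD2 were higher in low_RFI, at 0.51 (SE 0.48), 0.37 (SE 0.38) and 0.63 (SE 0.70). Nerve and glia had 2 of 3. Red cells had only HBE1 tested, at -0.080 (SE 0.34). Of 5 muscle markers, 4 were higher in high_RFI (median -0.029), as were 46.6% of all tested probes. MYOD1, a muscle lineage factor, was at -0.54 (SE 0.17, limma unadjusted p = 0.00622, adjusted p = 0.538). An unadjusted p under 0.05 with high_RFI higher was found for 2.99% of all probes, and nothing is read from it. CKM differed by -0.029 (SE 0.073), DES by -0.031 (SE 0.093) and MYOG by -0.028 (SE 0.11). None of these lists had a gene that passed.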

How the data were processed

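Muscle RNA of each pig was labelled with Cy3 and hybridised to its own Agilent array. Per the file headers, the deposited intensity of each spot comes from Feature Extraction 10.7.3.1, background-subtracted and detrended but not scaled across arrays, and other columns flag detection, saturation and non-uniformity. The deposited table holds the authors' log2 values. The submitters' processing notes name R 2.10.0. Compared with the scanner signals, the table is log2 signal minus each array's median over 29364 spots (largest difference 4.93e-08).

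Control and non-uniform spots were left out, spots of 1 probe averaged, and log2 signal scaled to each array's 75th percentile. Probes well above background on at least 7 arrays with at least 4 values per line were tested in limma 3.58.1 (R 4.3.3, statmod 1.5.0, data.table in its version 1.17.8), low_RFI minus high_RFI, two-sided, with Benjamini-Hochberg adjustment over 31984 probes. Correlations used 100000 permutations, two-sided. Of 43603 probes, 11954 carry a gene symbol, 330 a locus name and 31319 no name; a gene stands as its tested probe of highest mean level.

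All aquaporin probes that met the rule are named, with the 5 symbols of highest r for each of AQP4, AQP7 and AQP11 and up to 4 genes from among the 4 of smallest p in each list; some list genes are not reported here. The members and lists were chosen with earlier results of these data known. Tested on simulated data for this comparison over 31984 probes, the fit found 30% of probes given a 1.5-fold change and 72% at 2-fold, and 6.42% of its calls were wrong. Precision is limited by having 15 pigs, with a median SE of 0.14. Alternatives covered background correction (normexp, offset 50), scaling, the deposited values, filters, slide, array number, replicate number, moderation in limma, weighting of arrays, probe or symbol as unit, and leaving out each array.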

Additional observations from a re-analysis of the deposited data

Results flagged for a closer look

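In AQP1 1 high_RFI pig, replicate 8, stood apart from its line with a level of -0.78, where the next highest was -1.57 (a gap of 0.581 of the line's range). In AQP2 the high_RFI pig of replicate 2 stood apart at 0.40, where the next highest was -0.20 (0.643 of the range). In all 22 groups of a probe and a line were examined, and chance alone marks about 1 in 20. The same AQP2 pig, replicate 2, also carried the highest level of all pigs for AQP4 (2.27), AQP5 (-0.10), AQP6 (-3.30), AQP8 (-0.73) and AQP10 (-1.01). For the first AQP3 probe it had the lowest (-3.27). None of these values was marked, and this array takes part in the correlations between those probes.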

How the results depend on the processing

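AQP4, AQP7 and AQP11 kept their direction under all 29, 28 and 29 alternatives run, and no aquaporin passed the adjusted threshold in any. AQP4 ranged from -1.497 to -1.03 (limma adjusted p from 0.368 to 0.766), AQP7 from -1.28 to -0.42 (0.341 to 0.866) and AQP11 from 0.27 to 0.37 (0.223 to 0.866). Requiring detection on all arrays gives no value for AQP7 or AQP6. With the replicate number as a block, which drops high_RFI replicate 8, AQP4 was -1.24, AQP7 -1.08 and AQP11 0.35, and 0 probes were called. The main fit did not treat the numbers as pairs. Correlations of deviations between same-numbered pigs ran from -0.0122 to 0.269, with 5 of 7 over 0.1. Of the low_RFI pigs, 1 matched its own number best. Same-numbered pigs also share a run of array numbers, so these values cannot tell pairing from run. The count of called probes, 0 here, was 1 with no filter on dim probes, 1 with 1 probe per gene symbol and 0 to 2 when each array was left out (2 without low_RFI replicate 7).

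Values near 0 changed sign in 17 cases, and the cause was not tested. With normexp AQP8 was -0.078. With slide as a fixed block AQP10 was 0.018, AQP2 0.013 and AQP6 0.038, and with array weights AQP2 was 0.014 and AQP6 0.023. When each array was left out in turn, AQP10 ran from -0.055 to 0.054, AQP2 from -0.063 to 0.070, AQP5 from -0.220 to 0.031, AQP6 from -0.181 to 0.080 and AQP8 from -0.011 to 0.104. The highest of these values came without high_RFI replicate 2, except for AQP6 (0.080 without low_RFI replicate 2). AQP1 ran from -0.270 to -0.064 and the AQP3 probes from -0.329 to -0.028 and from -0.573 to -0.209, with no change of sign. The signal of AQP7, near background, limits its value.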

Other observations

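Besides the named aquaporins, 3 probes carry aquaporin only in their description. Of these 1 was detected on 12 of the 15 arrays. Low_RFI pigs averaged -4.54 ± 0.29 (SD, n = 7) against -4.48 ± 0.29 (SD, n = 8) for high_RFI pigs, a log2 difference of -0.059 (SE 0.15). The other two were detected on 2 arrays and on 0.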
